A study of Mus musculus with 6 samples.

Results

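Genes of glutathione, thioredoxin and antioxidant defence were examined in 2 mouse embryonic stem cell lines. They are 38 genes, chosen by name from the 23238 gene symbols of the count files: NRF2 control, glutathione synthesis and use, peroxiredoxins, the thioredoxin system, superoxide dismutases and catalase. The EWS-OCT4 line stably expressed EWS-OCT4A fused to GFP, and the control line stably expressed EGFP. EWS-OCT4 joins the Ewing sarcoma protein EWS to the transcription factor OCT-4. Both lines were of strain 129/Ola and cells that the labels name Niwa, LIF was in the medium of both, and both received doxycycline at 1 µg/ml, given to lower endogenous OCT-4. No group without doxycycline was analysed here, and the labels do not give the promoter of either transgene or whether a line was 1 clone. Each line gave 3 libraries, numbered 1 to 3. No label says that they came from separate cultures, and the p-values rest on a spread among samples that may be technical only.

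Reactive oxygen species are removed in steps. Superoxide dismutases turn superoxide into hydrogen peroxide, which catalase, glutathione peroxidases and peroxiredoxins then reduce. Glutathione and thioredoxin supply the electrons and are themselves recycled by reductases that draw on NADPH. The transcription factor NRF2 (gene Nfe2l2) induces many of these enzymes through the antioxidant response element, and KEAP1 holds it in check by directing its degradation. Embryonic stem cells are known for a low level of reactive oxygen species and rely on these systems as they divide.

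The libraries held 10978025 to 12281444 counts in the EWS-OCT4 line and 13239383 to 14935887 in the EGFP line, so that 1 count stood for 0.0839 to 0.0923 CPM (counts scaled to library size with TMM factors) in the EWS-OCT4 line and 0.0650 to 0.0745 CPM in the EGFP line. In each line library 3 differed most from its fellows: chi-square over degrees of freedom, across genes, reached 32.04 and 32.3 against the other EWS-OCT4 libraries and 23.7 and 25.05 against the other EGFP libraries. The same measure between libraries 1 and 2 was 4.21 for EWS-OCT4 and 3.96 for EGFP. Ribosomal precursor RNA (Rn45s) took 10.4%, 10.5% and 7.36% of the counts of the EWS-OCT4 libraries, against 6.44%, 6.10% and 5.85% of those of the EGFP libraries, and all 25 calls given below kept their direction with Rn45s left out of library sizes. Both lines are labelled as embryonic stem cells. All 10 markers of pluripotent cells were higher in the EWS-OCT4 line, with a summed level of 5192 to 5752 CPM, against 421 to 539.6 CPM in the EGFP line. Pou5f1 itself, which encodes OCT-4, was low in both lines, at 2.21 CPM in the EWS-OCT4 line and 0.644 CPM in the EGFP line. All 12 trophoblast markers were lower, with a summed level of 254 to 282 CPM in the EWS-OCT4 line and 4815 to 5448 CPM in the EGFP line, and Plac1, Prl3d1 and Tpbpa were without counts in all EWS-OCT4 libraries. Of 7 tested primitive endoderm markers, 2 were higher and 5 lower, and the list summed to 185 to 257 CPM in the EWS-OCT4 line and 476 to 707 CPM in the EGFP line. Of 8 tested fibroblast markers, 2 were higher and 2 lower, and the list summed to 26.4 to 35.5 CPM in the EWS-OCT4 line and 24.2 to 39.6 CPM in the EGFP line. These marker differences run with every difference given below, and their part in it was not tested. In such bulk libraries, fewer cells of a type and less RNA per cell cannot be told apart.

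The antioxidant genes moved in both directions. Of the 38, 37 passed the filter on low counts and were tested, and Mgst1, a microsomal glutathione transferase with 8, 3 and 0 counts in the EWS-OCT4 libraries and 9, 0 and 9 in the EGFP libraries, was not. In the EWS-OCT4 line 12 rose, 13 fell and 12 did not pass an adjusted p of 0.05 (edgeR's quasi-likelihood test with Benjamini-Hochberg adjustment over all 13467 genes tested). Over all genes tested 33.3% rose and 34.1% fell, 67.4% in either direction, so the share of antioxidant genes called was close to that of all genes. Changes of at least 2-fold were found in 11 that rose and 6 that fell, against 21.8% and 23.6% of all genes. The libraries of the lines did not overlap for 28 of the 37, against 72.7% of all genes. The median log2 difference was -0.04 (all genes: -0.0042), and the median of its size without sign was 0.92 (all genes: 0.93). Without the libraries numbered 3, 24 of the 25 called genes kept their call and direction. Gpx2 was then not tested, and Cat, Gpx3, Gpx4 and Txn2 were called in addition, where 75.6% of all genes were called. Rises and falls counted below in groups of these genes stand beside the 33.3% and 34.1% of all genes, and no group was tested. Values below are TMM-scaled CPM, a depth-scaled level per gene, and differences are log2 values of EWS-OCT4 over EGFP, given with a standard error (SE).

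**Figure D1:**
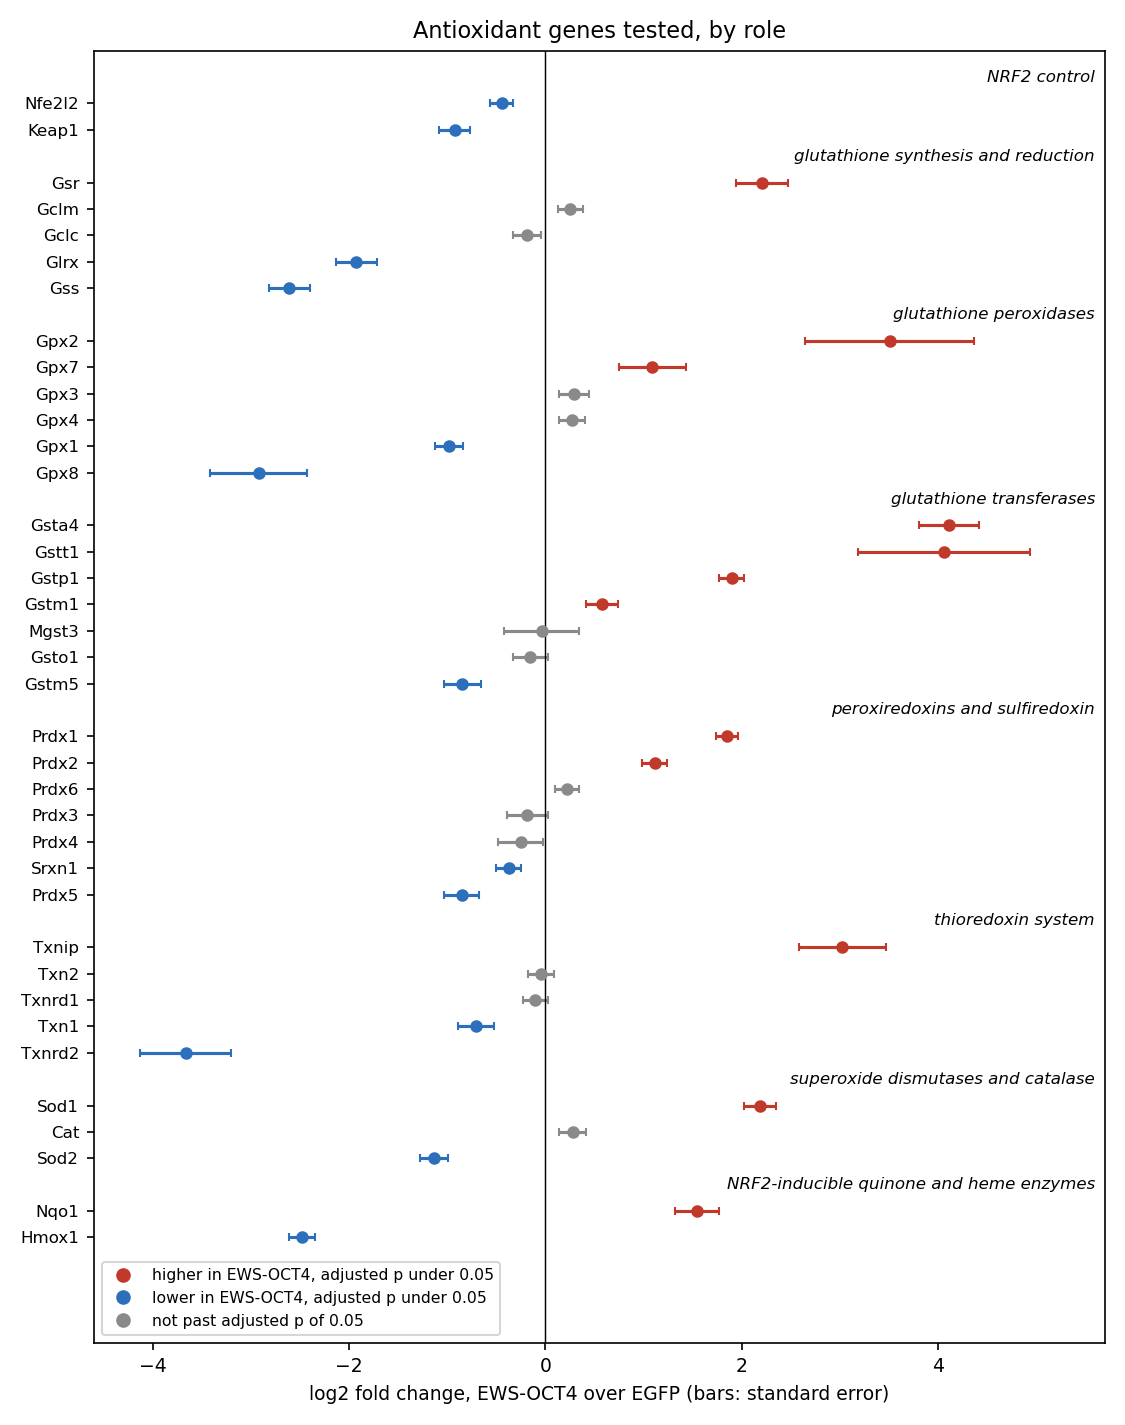
Log2 fold change of the EWS-OCT4 line over the EGFP line for the 37 tested genes, grouped by role, with the standard error as bars (n = 3 libraries per line). Within the glutathione peroxidases, the glutathione transferases and the thioredoxin system there are genes on both sides of 0.

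Expression of the NRF2 switch was examined first. Both genes of the switch were lower. Nfe2l2 itself (chromosome 2, 75675513 to 75704641, minus strand, GRCm38) stood at 112, 127 and 114 CPM in the EWS-OCT4 libraries, against 156, 159 and 165 CPM in the EGFP libraries (log2 difference -0.45, SE 0.11, adjusted p = 0.00564). Keap1, the inhibitor of NRF2, stood at 42.8, 47.6 and 61.6 CPM in the EWS-OCT4 libraries, against 98.7, 104 and 86.1 CPM in the EGFP libraries (log2 difference -0.92, SE 0.16, adjusted p = 5.8e-04). Neither gene had overlapping libraries, and the fall of Keap1, 1.90-fold, was the larger in size beside 1.36-fold for Nfe2l2; the difference between the falls was not tested. The antisense transcript Gm16754 overlaps the last exon of Keap1, and whether counting used strand is not given in the sources used here.

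Of the enzymes best known as NRF2-inducible, the quinone reductase and the heme oxygenase moved apart. Nqo1, which reduces quinones, was at 19.6, 17.8 and 15.5 CPM in the EWS-OCT4 libraries, against 5.07, 5.54 and 7.47 CPM in the EGFP libraries (log2 difference 1.55, SE 0.23, adjusted p = 1.8e-04). It rose 2.92-fold, although at a low level in both lines. Hmox1 (chromosome 8, 75093621 to 75100589), which breaks down heme, was at 30.2, 37.3 and 32.9 CPM in the EWS-OCT4 libraries, against 193, 188 and 179 CPM in the EGFP libraries (log2 difference -2.48, SE 0.13, adjusted p = 1.8e-07). It fell 5.57-fold, with the 3 libraries of each line close together, and leaving out single libraries gave log2 differences of -2.56 to -2.41. A wider group of 12 genes that are classical NRF2 targets (Nqo1, Hmox1, Gclc, Gclm, Gsr, Srxn1, Txnrd1, Txn1, Prdx1, Gstm1, Gsta4 and Gstp1) held 6 that rose, 3 that fell and 3 that did not pass. Over all genes tested 33.3% rose and 34.1% fell, and the group was not tested as a set. Beside the lower level of Nfe2l2, Hmox1, Txn1 and Srxn1 fell, and Gclc, Gclm and Txnrd1 did not pass. Nqo1, Gsta4, Gsr, Gstp1, Prdx1 and Gstm1 rose in the same libraries.

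The promoters were read for the antioxidant response element, since NRF2 is known to act through it. RefSeq promoters (GRCm38.p6, from 250 bases before to 50 bases after the start) were at hand for 33 of the 38 genes, with 41 start sites. The core motif TGACNNNGC, searched on both strands, was in 8 of the 33 genes (24.2%), against 14.0% of all 27025 genes of the table. By start site it was in 8 of 41, against 12.4% of 32851. Among genes with a promoter sequence it was in 2 of 10 that rose, 3 of 12 that fell, 2 of 10 that did not pass and in the untested Mgst1. The longer form, the core followed by A, was in 1 of the 33 genes, Txnrd1, against 3.45% of all genes. The 7 letters TGACTCA, the known AP-1 site, searched on both strands, were in 6 of the 41 start sites, of the genes Srxn1, Gstm5, Prdx1, Glrx and Gstp1, against 5.20% of all start sites, and the core match of Prdx1 contains them. The promoters of the genes with a core match that rose (Prdx1 and Sod1) and fell (Nfe2l2, Srxn1 and Gstm5), and of Txnrd1, which carries the longer form and did not pass the test, are printed here with the core match in capitals. They lie at chr4:116685349-116685648 on the plus strand, chr16:90220512-90220811 on the plus strand, chr2:75704614-75704913 on the minus strand, chr2:152105274-152105573 on the plus strand, chr3:107895604-107895903 on the plus strand and chr10:82858956-82859255 on the plus strand. Each is written 5′ to 3′ along its gene.
Prdx1: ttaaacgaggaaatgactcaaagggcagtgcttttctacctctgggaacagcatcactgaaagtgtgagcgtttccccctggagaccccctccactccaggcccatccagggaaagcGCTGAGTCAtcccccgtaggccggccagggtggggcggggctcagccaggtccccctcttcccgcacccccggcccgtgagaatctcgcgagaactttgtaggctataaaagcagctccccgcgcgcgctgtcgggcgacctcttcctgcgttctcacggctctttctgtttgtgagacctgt
Sod1: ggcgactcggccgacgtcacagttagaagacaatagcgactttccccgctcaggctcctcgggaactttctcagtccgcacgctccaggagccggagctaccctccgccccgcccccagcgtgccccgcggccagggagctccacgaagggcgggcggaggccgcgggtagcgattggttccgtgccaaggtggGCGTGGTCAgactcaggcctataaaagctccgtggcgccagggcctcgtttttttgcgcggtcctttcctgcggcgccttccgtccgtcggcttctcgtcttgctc
Nfe2l2: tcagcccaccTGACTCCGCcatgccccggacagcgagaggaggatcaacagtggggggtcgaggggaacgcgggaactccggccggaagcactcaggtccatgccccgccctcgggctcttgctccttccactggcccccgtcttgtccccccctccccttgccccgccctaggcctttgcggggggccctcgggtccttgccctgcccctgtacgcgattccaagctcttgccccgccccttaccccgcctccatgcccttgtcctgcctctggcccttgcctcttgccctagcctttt
Srxn1: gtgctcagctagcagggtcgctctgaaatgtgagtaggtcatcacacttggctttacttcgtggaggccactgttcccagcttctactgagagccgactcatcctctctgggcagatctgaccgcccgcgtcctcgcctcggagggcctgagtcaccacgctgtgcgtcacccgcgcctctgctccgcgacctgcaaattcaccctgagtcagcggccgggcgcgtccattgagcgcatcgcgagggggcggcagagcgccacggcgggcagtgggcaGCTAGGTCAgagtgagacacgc
Gstm5: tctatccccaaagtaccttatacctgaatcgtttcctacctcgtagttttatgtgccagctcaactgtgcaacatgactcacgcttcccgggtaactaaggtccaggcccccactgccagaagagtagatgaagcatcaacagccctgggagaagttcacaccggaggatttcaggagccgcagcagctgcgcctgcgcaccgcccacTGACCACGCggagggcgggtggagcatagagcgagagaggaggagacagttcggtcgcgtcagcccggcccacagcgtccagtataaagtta
Txnrd1: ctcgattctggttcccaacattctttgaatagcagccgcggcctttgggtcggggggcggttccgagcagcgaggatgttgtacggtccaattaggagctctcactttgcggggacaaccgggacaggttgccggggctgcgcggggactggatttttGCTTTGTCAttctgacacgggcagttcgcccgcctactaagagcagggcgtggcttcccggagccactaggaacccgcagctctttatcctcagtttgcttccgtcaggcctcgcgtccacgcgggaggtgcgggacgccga
The match begins 133 bases before the start in Prdx1, 56 before it in Sod1, 240 before it in Nfe2l2, 42 before it in Gstm5 and 92 before it in Txnrd1, and 28 bases after it in Srxn1. Genes with a match were thus found on both sides of the comparison. These are letter matches in short windows, which say nothing of binding. Forms of the element other than the core and the longer form were not searched, so a gene without a match may still carry one.

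Glutathione synthesis and reduction split by step. The first and rate-limiting step, made by glutamate-cysteine ligase, did not pass the test in either subunit. Its catalytic subunit Gclc was at 63.8, 60.1 and 54.6 CPM in the EWS-OCT4 libraries, against 60.5, 65.3 and 76.8 CPM in the EGFP libraries (log2 difference -0.18, adjusted p = 0.275), and its libraries overlapped. Its modifier subunit Gclm was at 71.4, 77.96 and 77.2 CPM in the EWS-OCT4 libraries, against 66.6, 65.9 and 57.7 CPM in the EGFP libraries (log2 difference 0.25, adjusted p = 0.103), and its libraries did not overlap. The last exon of Gclm overlaps Gm17494 on the opposite strand and Gm6061 on the same strand, which were not analysed here.

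The second step did differ. Gss, glutathione synthetase (chromosome 2, 155563181 to 155592810, minus strand), was at 7.19, 7.75 and 11.8 CPM in the EWS-OCT4 libraries, against 58.9, 56.5 and 48.3 CPM in the EGFP libraries (log2 difference -2.61, SE 0.21, adjusted p = 3.0e-06). It fell 6.09-fold, with EWS-OCT4 number 3 the highest of its line. The last exon of Gss overlaps Acss2 on the opposite strand, and Acss2 was at 10.2 ± 2.98 CPM in the EWS-OCT4 line and 6.28 ± 1.01 CPM in the EGFP line (log2 difference 0.70, adjusted p = 0.0474). That small rise of Acss2 was lost in 5 of the 6 fits without 1 library, where its adjusted p was between 0.0603 and 0.222. Without strand, tags of the pair cannot be told apart.

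Gsr (chromosome 8, 33652523 to 33698163), the reductase that returns oxidised glutathione to its reduced form, was at 118, 111 and 55.2 CPM in the EWS-OCT4 libraries, against 18.8, 22.98 and 19.7 CPM in the EGFP libraries (log2 difference 2.21, SE 0.26, adjusted p = 4.4e-05). It rose 4.62-fold, and EWS-OCT4 number 3 lay well below the other EWS-OCT4 libraries but above all 3 EGFP libraries. Glrx, glutaredoxin, which uses glutathione to reduce protein mixed disulfides, was at 9.31, 9.04 and 6.21 CPM in the EWS-OCT4 libraries, against 29.2, 28.7 and 35.1 CPM in the EGFP libraries (log2 difference -1.92, SE 0.21, adjusted p = 2.1e-05). It fell 3.80-fold in libraries that did not overlap.

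**Figure D2:**
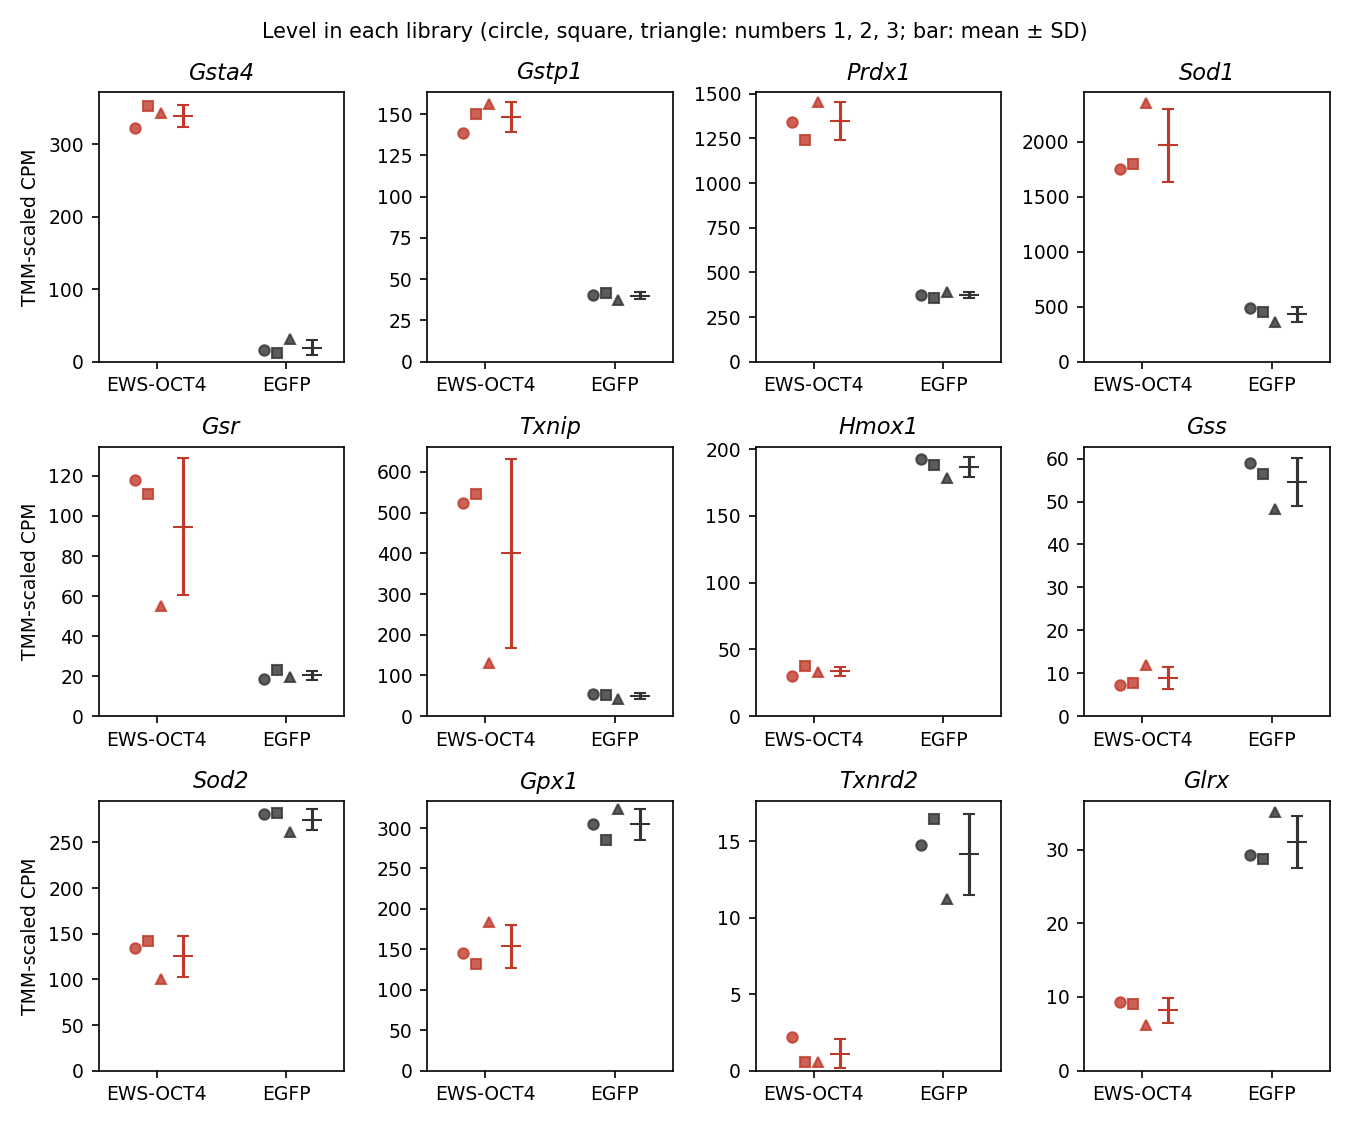
TMM-scaled CPM of 12 genes in each library, EWS-OCT4 left and EGFP right, with circle, square and triangle for numbers 1, 2 and 3 and the mean ± SD beside them (n = 3). The lines do not overlap in any of the 12 panels, and EWS-OCT4 number 3 stands apart in Txnip (131 CPM) and Gsr (55.2 CPM).

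Among the 6 glutathione peroxidases, 2 rose, 2 fell and 2 did not pass. Gpx1, the cytosolic enzyme and the first selenoprotein known in mammals, was at 146, 132 and 184 CPM in the EWS-OCT4 libraries, against 305, 285 and 323 CPM in the EGFP libraries (log2 difference -0.98, SE 0.14, adjusted p = 1.5e-04). Gpx4, which reduces lipid hydroperoxides in membranes and guards cells against ferroptosis, was at 211, 251 and 230.2 CPM in the EWS-OCT4 libraries, against 216, 195 and 163 CPM in the EGFP libraries (log2 difference 0.27, adjusted p = 0.0993). Gpx3, the secreted enzyme, was at 33.8, 28.7 and 27.3 CPM in the EWS-OCT4 libraries, against 26.1, 23.96 and 23.3 CPM in the EGFP libraries (log2 difference 0.29, adjusted p = 0.121). So Gpx1 fell 1.98-fold, while Gpx4 and Gpx3 did not pass the test with all 6 libraries. In numbers 1 and 2 alone both passed, with log2 differences of 0.19 (adjusted p = 0.0394) and 0.34 (adjusted p = 0.0363). With 0.5 CPM added to each level, the log2 difference of Gpx4 was 0.50 in number 3 and 0.17 in numbers 1 and 2. That of Gpx3 was 0.23 and 0.31. Passing without number 3 thus did not mean a larger difference for Gpx4. The last 300 bases of Gpx4 match Gpx4-ps2 at 99.7%, which was not analysed here.

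The other 3 were low. Gpx2, best known from the gut epithelium, had 26, 9 and 12 counts in the EWS-OCT4 libraries, against 0, 1 and 4 in the EGFP libraries (log2 difference 3.51, SE 0.86, adjusted p = 0.00444). Of the EGFP counts, 4 of 5 were in number 3. Without it the line had 1 count and the depth-scaled ratio was 38.7 (exact 95% interval 6.62 to 1562, counting error only), and without EWS-OCT4 number 1 the log2 difference was 2.91. Fntb, on the other strand of its last exon, did not pass (log2 difference -0.03, adjusted p = 0.874). Gpx7 and Gpx8 act in the endoplasmic reticulum and carry cysteine in place of selenocysteine. Gpx7 was at 5.80, 6.64 and 7.46 CPM in the EWS-OCT4 libraries, against 2.46, 2.31 and 4.55 CPM in the EGFP libraries (log2 difference 1.09, SE 0.34, adjusted p = 0.0168), a call that was lost without EGFP number 1 (adjusted p = 0.0659) or number 2 (adjusted p = 0.0678; 0.00301 to 0.0678 over the 6 fits without 1 library). Gpx8 was at 0.737, 0.185 and 1.01 CPM in the EWS-OCT4 libraries, against 5.21, 5.11 and 4.61 CPM in the EGFP libraries (log2 difference -2.92, SE 0.50, adjusted p = 4.8e-04). The pair thus moved apart, and Prdx4, the peroxiredoxin of the same compartment, did not pass, with 10.1, 15.04 and 13.8 CPM in the EWS-OCT4 libraries, against 18.8, 12.5 and 15.2 CPM in the EGFP libraries (log2 difference -0.25, adjusted p = 0.358).

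Glutathione transferases, which join glutathione to reactive molecules, held the largest rises. Gsta4 (chromosome 9, 78182774 to 78209349), the transferase for the lipid peroxidation product hydroxynonenal, was at 322, 353 and 343 CPM in the EWS-OCT4 libraries, against 15.6, 12.1 and 30.9 CPM in the EGFP libraries (log2 difference 4.11, SE 0.30, adjusted p = 1.6e-06). It rose 17.3-fold, with all EWS-OCT4 libraries far above EGFP number 3, the highest of its line. Gstp1 (chromosome 19, 4035407 to 4037985), the pi class enzyme, was at 139, 150.4 and 156 CPM in the EWS-OCT4 libraries, against 40.7, 41.4 and 37.4 CPM in the EGFP libraries (log2 difference 1.90, SE 0.12, adjusted p = 6.8e-07). Its neighbour Gstp2, with an identical 3′ end over 300 bases, was at 153 ± 20.7 CPM in the EWS-OCT4 line and 37.6 ± 1.88 CPM in the EGFP line (log2 difference 2.02, SE 0.14). Counts of the pair may be shared, so the rise of Gstp2 may not be separate from that of Gstp1.

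Gstt1, the theta class enzyme, had 78, 61 and 96 counts in the EWS-OCT4 libraries, against 0, 0 and 18 in the EGFP libraries (log2 difference 4.06, SE 0.87, adjusted p = 0.00209). All EGFP counts were in number 3, 1 of the libraries that stand apart. Without it the EGFP line had no count, and with a floor of 3 counts per library Gstt1 was then at least 32.1-fold higher in the EWS-OCT4 line (counting error only). That bound does not cover EGFP number 3. Between the libraries numbered 3 the log2 difference was 2.36 (0.5 CPM added to each level), and the fit of all 6 libraries gave 16.7-fold. Gstm1, a mu class enzyme, was at 42.9, 40.4 and 47.7 CPM in the EWS-OCT4 libraries, against 26.2, 26.3 and 35.1 CPM in the EGFP libraries (log2 difference 0.58, SE 0.17, adjusted p = 0.0102), a call that was lost without EGFP number 1 (adjusted p = 0.0545) or number 2 (adjusted p = 0.0525; 0.00231 to 0.0545 over the 6 fits without 1 library). Its 3′ end is shared with the pseudogene Gstm2-ps1 at 98.3% over 238 bases. Gstm5, of the same class, was at 12.8, 15.5 and 15.9 CPM in the EWS-OCT4 libraries, against 30.9, 26.6 and 22.2 CPM in the EGFP libraries (log2 difference -0.85, SE 0.19, adjusted p = 0.00252) and was the transferase that fell. The omega class enzyme Gsto1 was at 88.7, 73.4 and 55.6 CPM in the EWS-OCT4 libraries, against 85.4, 85.97 and 70.9 CPM in the EGFP libraries (log2 difference -0.15, adjusted p = 0.462). Mgst3, of the microsomal family, was at 16.2, 17.1 and 5.03 CPM in the EWS-OCT4 libraries, against 13.3, 15.2 and 10.7 CPM in the EGFP libraries (log2 difference -0.04, adjusted p = 0.936). Neither passed the test. EWS-OCT4 number 3 was the lowest EWS-OCT4 library for both. Cfap43, on the other strand of the last exon of Gsto1, rose (log2 difference 2.78, adjusted p = 4.8e-05) at 8.02 CPM in the EWS-OCT4 line and 1.16 CPM in the EGFP line.

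Summed over the 8 transferases the level was 629, 656 and 631 CPM in the EWS-OCT4 libraries, against 213, 208 and 209 CPM in the EGFP libraries. The lines did not overlap, and Gsta4 supplied most of the difference. For the 6 glutathione peroxidases the summed level was 399.5, 420.2 and 451 CPM in the EWS-OCT4 libraries, against 555, 512 and 519 CPM in the EGFP libraries, lower in every EWS-OCT4 library.

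**Figure D3:**
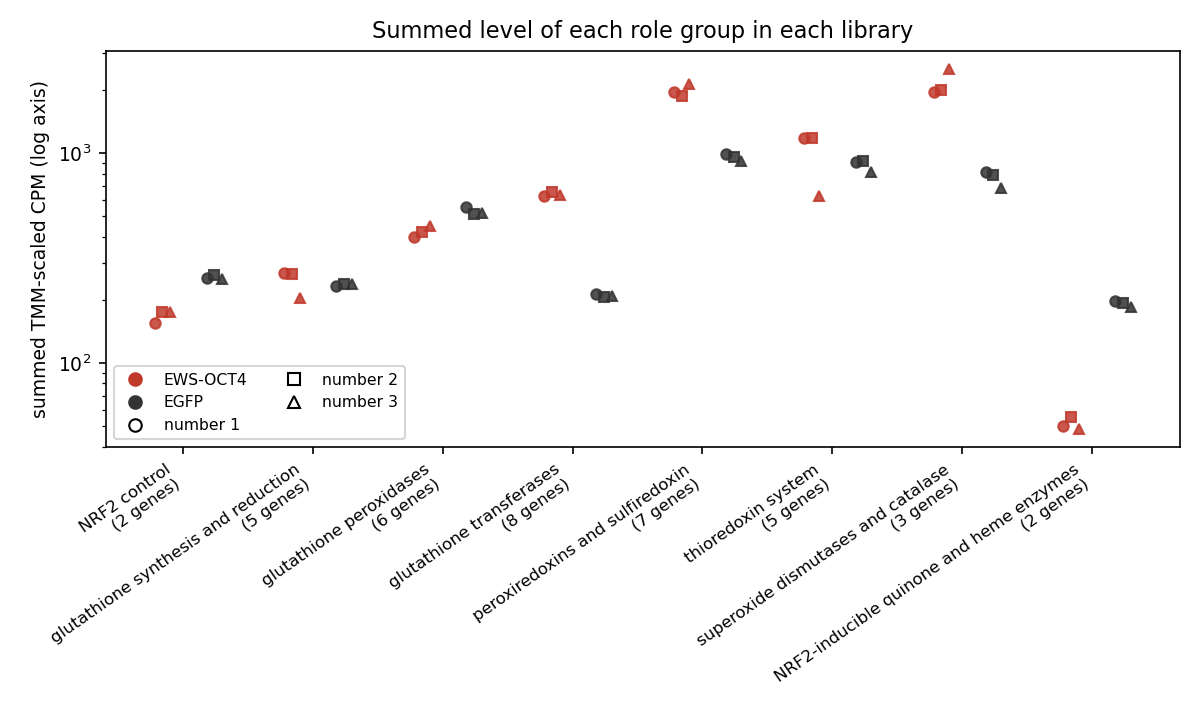
Summed TMM-scaled CPM (log axis) of each role group in each library, EWS-OCT4 left of EGFP in each pair, with circle, square and triangle for numbers 1, 2 and 3. The sums of transferases, of peroxiredoxins with sulfiredoxin, and of superoxide dismutases with catalase are higher in all 3 EWS-OCT4 libraries. Gsta4, Prdx1 and Sod1 supply most of these differences, and each of the groups also holds genes that fell. The sum of the thioredoxin system is lower in EWS-OCT4 number 3 (623 CPM) than in any EGFP library.

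Peroxiredoxins reduce hydrogen peroxide, most of them with thioredoxin, and the cytosolic enzymes Prdx1 and Prdx2 were higher. Prdx1 (chromosome 4, 116685544 to 116700822) was at 1339.5, 1244 and 1455 CPM in the EWS-OCT4 libraries, against 373, 357 and 387 CPM in the EGFP libraries (log2 difference 1.85, SE 0.11, adjusted p = 4.3e-07). Prdx2 was at 169, 163 and 195 CPM in the EWS-OCT4 libraries, against 84.5, 82.7 and 76.3 CPM in the EGFP libraries (log2 difference 1.11, SE 0.12, adjusted p = 2.5e-05). They rose 3.62-fold and 2.16-fold, in libraries of the lines that lay far apart. The 3′ ends match pseudogenes that were not analysed here, Gm21399 and Gm7204 for Prdx1 at 98.7% and Tdpx-ps1 for Prdx2 at 97.7%. The last exon of Prdx2 overlaps Junb on the other strand, and Junb did not pass the test (log2 difference -0.01, adjusted p = 0.948).

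The remaining peroxiredoxins did not follow. Prdx5, an atypical enzyme of mitochondria, peroxisomes and cytosol, was at 66.7, 51.4 and 56.6 CPM in the EWS-OCT4 libraries, against 123, 111 and 81.98 CPM in the EGFP libraries (log2 difference -0.85, SE 0.17, adjusted p = 0.00152). Prdx3, the enzyme of the mitochondrial matrix, was at 43.1, 51.8 and 27.8 CPM in the EWS-OCT4 libraries, against 46.9, 45.3 and 47.03 CPM in the EGFP libraries (log2 difference -0.18, adjusted p = 0.452). Prdx6, which works with glutathione and has phospholipase activity, was at 262, 288 and 318 CPM in the EWS-OCT4 libraries, against 266, 258 and 220.3 CPM in the EGFP libraries (log2 difference 0.22, adjusted p = 0.141). Prdx5 thus fell 1.81-fold, and the libraries of Prdx3 and Prdx6 overlapped between the lines. Srxn1, sulfiredoxin, which restores overoxidised peroxiredoxins, was at 64.2, 66.3 and 73.1 CPM in the EWS-OCT4 libraries, against 81.8, 93.3 and 88.7 CPM in the EGFP libraries (log2 difference -0.37, SE 0.13, adjusted p = 0.0236). Its call, a 1.29-fold fall, was lost without EWS-OCT4 number 1 (adjusted p = 0.0894) or number 2 (adjusted p = 0.0779) and without EGFP number 2 (adjusted p = 0.0828; 0.00682 to 0.0894 over the 6 fits without 1 library). Summed over the 6 peroxiredoxins and Srxn1, the level was 1956, 1879 and 2139.9 CPM in the EWS-OCT4 libraries, against 994, 959.8 and 917 CPM in the EGFP libraries. Prdx1 supplied most of that difference, and of the 7 genes 2 rose, 2 fell and 3 did not pass (median log2 difference -0.18).

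In the thioredoxin system the inhibitor rose, while the cytosolic thioredoxin and the mitochondrial reductase fell. Txnip (chromosome 3, 96557957 to 96561883), which binds thioredoxin and limits glucose uptake, was at 523, 546 and 131 CPM in the EWS-OCT4 libraries, against 54.1, 51.9 and 41.3 CPM in the EGFP libraries (log2 difference 3.03, SE 0.44, adjusted p = 1.7e-04). It rose 8.14-fold with a wide spread, since EWS-OCT4 number 3 lay between the other EWS-OCT4 libraries and the EGFP libraries; the log2 difference was 1.66 between the libraries numbered 3 and 3.32 between numbers 1 and 2 (0.5 CPM added to each level). Its relative Arrdc4, also known to respond to glucose, was at 63.1 ± 3.07 CPM in the EWS-OCT4 line and 12.9 ± 1.055 CPM in the EGFP line (log2 difference 2.29, SE 0.15, adjusted p = 5.8e-07). Txn1, cytosolic thioredoxin, was at 382, 389 and 237 CPM in the EWS-OCT4 libraries, against 569, 583 and 486 CPM in the EGFP libraries (log2 difference -0.70, SE 0.18, adjusted p = 0.00653). It fell 1.63-fold, and EWS-OCT4 number 3 was its lowest library as well. The last exon of Txnip overlaps Gm15441 on the other strand, which was low in both lines, at 2.01 CPM in the EWS-OCT4 line and 0.194 CPM in the EGFP line.

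Txnrd1, the cytosolic selenoprotein that reduces thioredoxin, did not pass, at 181, 159 and 139 CPM in the EWS-OCT4 libraries, against 167, 166 and 179.9 CPM in the EGFP libraries (log2 difference -0.10, adjusted p = 0.501). Txn2, mitochondrial thioredoxin, was at 92.97, 92.5 and 115 CPM in the EWS-OCT4 libraries, against 108, 105 and 96.99 CPM in the EGFP libraries (log2 difference -0.04, adjusted p = 0.788). Its libraries overlapped, as did those of Txnrd1. With numbers 1 and 2 alone Txn2 was called lower (log2 difference -0.18, adjusted p = 0.0472). Between the libraries numbered 3 it was higher, with a log2 difference of 0.25 (0.5 CPM added to each level). Txnrd2 (chromosome 16, 18426384 to 18479073), the mitochondrial reductase, had 24, 6 and 7 counts in the EWS-OCT4 libraries, against 198, 235 and 173 in the EGFP libraries (log2 difference -3.66, SE 0.46, adjusted p = 6.2e-05). It fell 12.7-fold. Without EWS-OCT4 number 1, which held most of the counts of its line, it fell by 4.60 on the log2 scale. Short stretches at the 3′ end of Txn2 match other transcripts, Adh5 among them over 85 bases at 97.6%, so its count may hold tags of those.

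The superoxide dismutases moved in opposite directions. Sod1 (chromosome 16, 90220754 to 90226329), the copper-zinc enzyme of the cytosol, was at 1754, 1797 and 2351 CPM in the EWS-OCT4 libraries, against 485, 451 and 357 CPM in the EGFP libraries (log2 difference 2.19, SE 0.16, adjusted p = 1.6e-06). Sod2 (chromosome 17, 13006846 to 13040063), the manganese enzyme of mitochondria, was at 134, 142 and 99.9 CPM in the EWS-OCT4 libraries, against 281, 282 and 262 CPM in the EGFP libraries (log2 difference -1.13, SE 0.14, adjusted p = 6.9e-05). The rise of Sod1 was 4.57-fold and the fall of Sod2 2.19-fold, each in libraries that did not overlap. The last exon of Sod1 overlaps Scaf4 on the other strand, which was lower (log2 difference -0.51, adjusted p = 0.025, lost in 3 of the 6 fits without 1 library). The 3′ end of Sod1 also matches the pseudogene Gm8566 over 228 bases at 97.8%, and that of Sod2 matches Gm40264 over 87 bases at 97.7%. Cat, catalase of the peroxisome, was at 64.2, 66.4 and 79.6 CPM in the EWS-OCT4 libraries, against 53.3, 56.5 and 63.5 CPM in the EGFP libraries (log2 difference 0.28, adjusted p = 0.108). With all 6 libraries it was not called, and with numbers 1 and 2 alone it was (log2 difference 0.27, adjusted p = 0.0167).

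Of the 4 proteins of the mitochondrial matrix, Sod2 and Txnrd2 fell, and Prdx3 and Txn2 did not pass. Their summed level was 273, 287 and 243 CPM in the EWS-OCT4 libraries, against 449.9, 449 and 417 CPM in the EGFP libraries. Of the 6 selenoproteins (Gpx1, Gpx2, Gpx3, Gpx4, Txnrd1 and Txnrd2) 1 rose, 2 fell and 3 did not pass. Summed over all 38 genes the level was 6592, 6642 and 6805 CPM in the EWS-OCT4 libraries, against 4179.8, 4088 and 3819 CPM in the EGFP libraries, with Sod1 and Prdx1 as the genes of the largest differences in CPM.

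**Figure D4:**
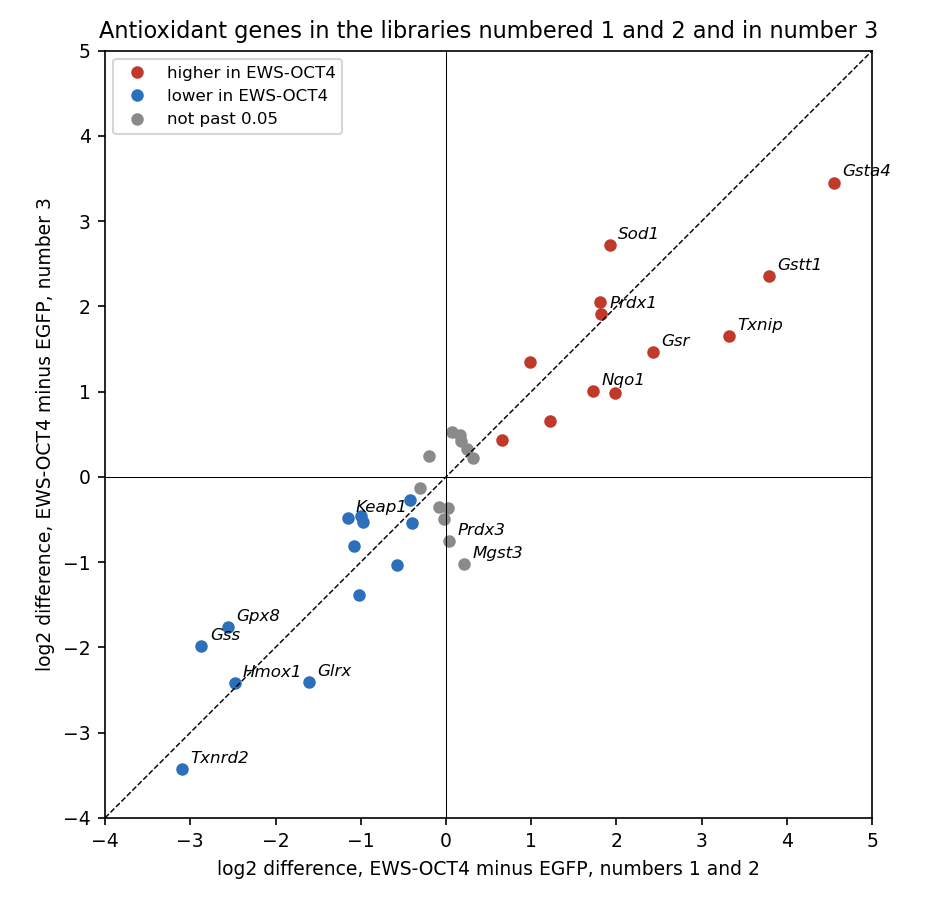
Log2 difference between the lines (EWS-OCT4 minus EGFP, 0.5 CPM added) of the 37 tested genes in the libraries numbered 3 (vertical axis) and in the means of numbers 1 and 2 (horizontal axis), with the dashed line for equal values. All 25 called genes have the same sign in number 3, which follows from their lines not overlapping and adds no separate support. Txnip, Gstt1, Gsta4, Gsr and Nqo1 are among the genes below the line, and Keap1, Gss, Gpx8 and Sod1 among those above it.

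The remaining genes of these pathways were read from 8 lists set by role, and in each list the called genes with the largest rise and the largest fall are named among those that average at least 10 CPM and whose lines do not overlap. Of 165 genes in the files 142 were tested, of which 52 rose, 50 fell and 40 did not pass, again close to the shares of all genes (median log2 difference 0.15, against -0.0042 for all genes). The counts of each list below stand beside 33.3% of all genes that rose and 34.1% that fell, and no list was tested. Among genes of NRF2 partners and turnover, 2 of 12 rose and 6 fell, with a median of -0.48. Rbx1, a subunit of the ligase that ubiquitinates NRF2, was at 143 ± 8.39 CPM in the EWS-OCT4 line and 85.2 ± 5.78 CPM in the EGFP line (log2 difference 0.75, SE 0.12, adjusted p = 2.9e-04), and Mafk, a small MAF protein that pairs with NRF2 on DNA, was at 9.76 ± 1.69 CPM in the EWS-OCT4 line and 37.2 ± 4.15 CPM in the EGFP line (log2 difference -1.93, SE 0.19, adjusted p = 1.1e-05). Sqstm1, chosen after its values were seen, is an adaptor that sequesters KEAP1 and was at 149.9 ± 13.7 CPM in the EWS-OCT4 line and 553 ± 52.7 CPM in the EGFP line (log2 difference -1.88, SE 0.13, adjusted p = 8.2e-07).

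Of 14 tested genes of cysteine supply and glutathione breakdown, 9 rose and 5 did not pass, with a median of 0.94, where 33.3% of all genes rose and 34.1% fell. No test of the list was made. Slc1a5, a transporter of neutral amino acids, was at 83.2 ± 6.82 CPM in the EWS-OCT4 line and 13.97 ± 10.5 CPM in the EGFP line (log2 difference 2.57, SE 0.41, adjusted p = 3.0e-04), or at a log2 difference of 3.38 without EGFP number 3. Chac1, which cleaves glutathione in the cytosol and was chosen after its values were seen, had 132, 142 and 158 counts in the EWS-OCT4 libraries, against 1, 4 and 3 in the EGFP libraries (log2 difference 6.04, SE 0.40, adjusted p = 6.9e-07). Slc7a11, the cystine transporter, had 6, 0 and 0 counts in the EWS-OCT4 libraries and 8, 1 and 1 in the EGFP libraries, and was not tested.

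Of 17 tested genes of NADPH supply, 10 rose and 3 fell, with a median of 0.71, beside the same 33.3% and 34.1% of all genes and with no test of the list. Nnt, the mitochondrial transhydrogenase, was at 57.5 ± 3.07 CPM in the EWS-OCT4 line and 6.24 ± 1.59 CPM in the EGFP line (log2 difference 3.20, SE 0.20, adjusted p = 5.3e-07), and Pgd, of the pentose phosphate pathway, was at 134 ± 11.7 CPM in the EWS-OCT4 line and 251 ± 15.1 CPM in the EGFP line (log2 difference -0.91, SE 0.12, adjusted p = 7.8e-05). Other transferases and peroxidases counted 6 that rose and 9 that fell of 21 (median -0.51). Gstp2, named above, had the largest rise at an average of at least 10 CPM, with counts that may be shared with Gstp1. Clic4, a chloride channel protein of the transferase fold, had the largest fall at that level, with 71.5 ± 21.05 CPM in the EWS-OCT4 line and 334 ± 25.4 CPM in the EGFP line (log2 difference -2.22, SE 0.21, adjusted p = 7.8e-06). Other proteins of the thioredoxin and glutaredoxin fold counted 3 that rose and 8 that fell of 19 (median -0.10). Arrdc4, given above, had the largest rise at an average of at least 10 CPM, and Glrx5, which serves iron-sulfur cluster assembly in mitochondria, was at 100.4 ± 5.01 CPM in the EWS-OCT4 line and 287 ± 8.08 CPM in the EGFP line (log2 difference -1.52, SE 0.11, adjusted p = 1.3e-06).

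Methionine sulfoxide reductases and other selenoproteins counted 6 that rose and 10 that fell of 22 (median -0.36). Selm, selenoprotein M, was at 17.2 ± 2.00 CPM in the EWS-OCT4 line and 4.59 ± 1.92 CPM in the EGFP line (log2 difference 1.91, SE 0.31, adjusted p = 3.7e-04), and Dio3, the deiodinase that inactivates thyroid hormone, was at 0.355 ± 0.149 CPM in the EWS-OCT4 line and 97.6 ± 14.3 CPM in the EGFP line (log2 difference -8.06, SE 0.27, adjusted p = 2.2e-08). Dio3 lies in an imprinted region and is known to be high in placenta. Other NRF2 target and detoxification genes counted 9 that rose and 5 that fell of 15 (median 0.53). Akr1b3, aldose reductase, was at 73.2 ± 0.690 CPM in the EWS-OCT4 line and 15.7 ± 1.53 CPM in the EGFP line (log2 difference 2.22, SE 0.14, adjusted p = 6.1e-07), and Slc40a1, the iron exporter ferroportin, was at 2.43 ± 0.325 CPM in the EWS-OCT4 line and 183 ± 30.5 CPM in the EGFP line (log2 difference -6.22, SE 0.21, adjusted p = 2.0e-08). In the list of superoxide, iron and lipid peroxidation control, 7 rose and 9 fell of 22 (median 0.13). Park7, a redox-sensitive protein that is lost in a form of familial parkinsonism, was at 222 ± 9.08 CPM in the EWS-OCT4 line and 41.7 ± 1.77 CPM in the EGFP line (log2 difference 2.41, SE 0.12, adjusted p = 1.1e-07), and Gch1, which makes tetrahydrobiopterin, was at 5.55 ± 1.28 CPM in the EWS-OCT4 line and 104 ± 25.9 CPM in the EGFP line (log2 difference -4.23, SE 0.25, adjusted p = 3.9e-07).

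**Figure D5:**
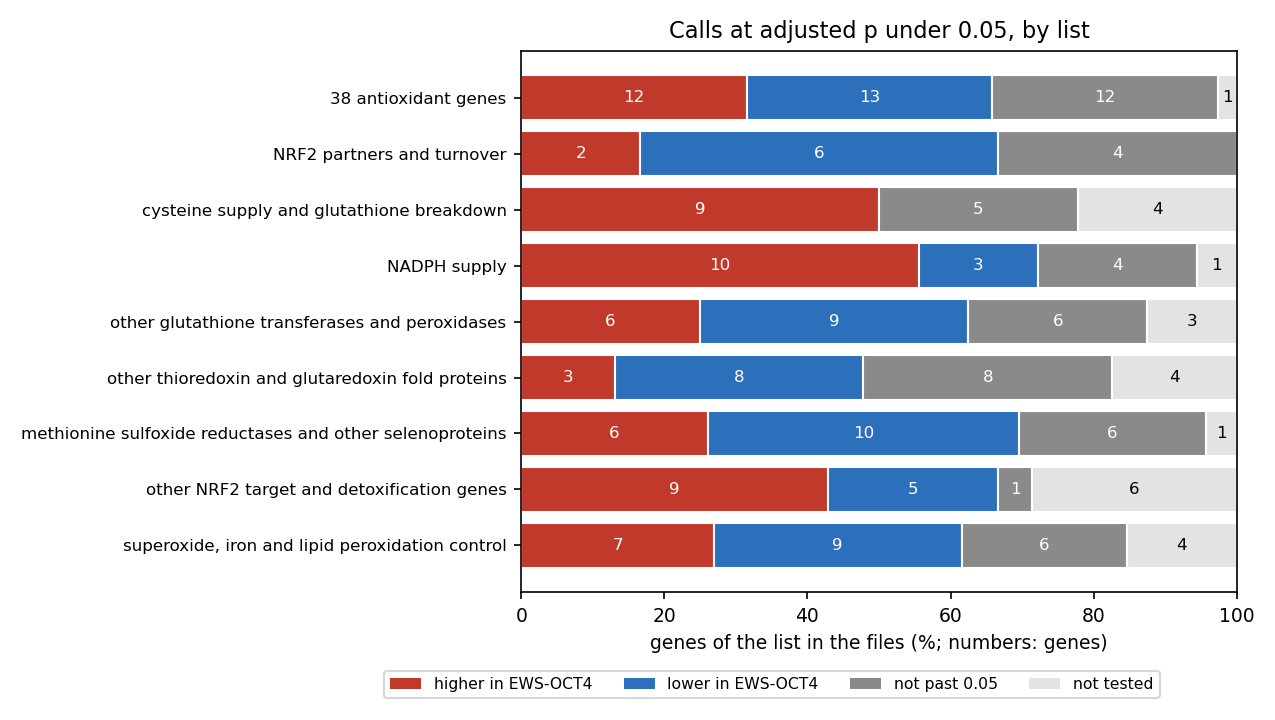
Share of the genes of each list that were higher (red) or lower (blue) in the EWS-OCT4 line at an adjusted p under 0.05, did not pass (grey) or were not tested (light grey), with the number of genes in each bar. The 38 antioxidant genes split into 12 higher and 13 lower, and 9 of the 14 tested genes of cysteine supply and glutathione breakdown were higher. Among all genes tested 33.3% were higher and 34.1% lower. Those shares leave out untested genes, whereas the bars include them.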

How the data were processed

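Per the labels' protocols, libraries were built from 500 ng of Trizol-extracted total RNA with a kit named as Lexogen QuantSeq, a name used for sequencing of 3′ ends. Whether the catalogue number in the labels is that of the 3′-end kit was not settled here. If reads came from whole transcripts, CPM would also depend on transcript length, and overlaps and copies outside the last exon and last 300 bases, which were not searched, would matter too. Tools named in the submitters' processing notes are Bowtie2 and edgeR, without versions or roles, and the build is mm10 (GRCm38). Raw integer counts for each gene symbol were deposited, with a file for each library. Which counter and annotation made them, and whether strand was used, is not given in the sources used here. Lines that repeated a symbol were summed (35 symbols, 79 lines).

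Counts were filtered with filterByExpr (minimum count 10, minimum total 15), scaled by TMM (factors 0.971 to 1.03) and tested line against line, 2-sided, with the robust quasi-likelihood F test of edgeR 4.0.16 over all 13467 genes passing, with Benjamini-Hochberg adjustment at 0.05. All adjusted p-values in the text come from it unless another fit is named. Biological variation (coefficient) came to 19.3%, and each SE is the log2 difference divided by the square root of F. Positions and overlaps are from GENCODE M21. An overlap is that of a last exon of any transcript with the whole span of another gene, introns included. 3′ ends (last 300 bases) were matched to all other transcripts with BLAST 2.17.0, at 97% or more over at least 50 bases.

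The 38 genes and all lists were chosen with earlier results of these data known. Values by library are given for all 38. From each pathway list the called gene with the largest rise and the one with the largest fall are named, if they average 10 CPM or more and the lines do not overlap. Older symbols of the files were matched through RefSeq synonyms. Intervals and floors (3 counts per library) cover counting error only. Alternatives were each library left out, a replicate block, DESeq2 size factors, no filter, a 10 CPM minimum on the mean, DESeq2 1.42.0, limma-voom (limma 3.58.1), Rn45s left out, numbers 1 and 2 alone, and a test against a 1.5-fold change.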

Additional observations from a re-analysis of the deposited data

How the results depend on the processing

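Of the 25 antioxidant genes called, all kept call and direction with DESeq2 size factors, no filter, DESeq2, limma-voom and Rn45s left out, and 19 passed a test against a 1.5-fold change. Their counts of rises and falls stayed within 1.5 times under every alternative named in the methods. Without single libraries they were 10 to 12 rises and 12 or 13 falls, and calls over all genes ranged between 8122 and 9385. Of the other pathway genes, 34 rose and 33 fell in the test against a 1.5-fold change, against 52 and 50 in the main fit. Of all 13467 genes tested, 3073 rose and 3326 fell in the test against a 1.5-fold change. The called antioxidant genes that no longer passed it were Gpx7, Gstm1, Gstm5, Nfe2l2, Srxn1 and Txn1. The share of antioxidant genes with the longer promoter motif was 3.03%, against 24.2% with the core. Over all genes the shares were 3.45% and 14.0%. Every longer match also holds the core, so its share could not be the larger one. Same-numbered libraries deviated from their line means with correlations of 0.05, 0.07 and 0.16, so the numbers were not taken as pairs. With a replicate block 12 antioxidant genes rose, 13 fell and 8968 genes were called in all, with a median of -0.11 for the antioxidant genes. EWS-OCT4 number 1 correlated best with EGFP number 2 (0.10) and EWS-OCT4 number 2 with EGFP number 1 (0.09), not with their own numbers. Number 3 of either line correlated negatively with numbers 1 and 2 of the other, between -0.13 and -0.10. Number 3 thus departed partly alike in both lines, although deviations within a line cancel out, so these correlations depend on each other. A mean of at least 10 CPM left out Gpx2, Gpx7, Gpx8, Gstt1 and Txnrd2. Depth limits Gpx2, Gstt1, Gpx8, Txnrd2 and Mgst1, which have few counts in 1 or both lines.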
